A study of Homo sapiens with 26 samples.

Results

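Expression of 30 genes of cholesterol and fatty acid synthesis was followed through 26 RNA-seq libraries of esophageal squamous cell carcinoma (ESCC) cell lines in which BRDT or TP63 had been depleted or BRDT had been added. The 30 genes were chosen by symbol out of 26485 gene symbols in each of 5 tables, and every one of them was found. They comprised 7 genes of the mevalonate steps, 9 of the sterol steps, 5 of sterol sensing and transport, 5 of fatty acid synthesis and 4 of elongation and desaturation. A table mean of at least 10 normalised counts was needed for testing: 30 members passed in KYSE180 and TE6 and 28 in KYSE150, where ACAT2 and DHCR7 did not reach it.

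BRDT is a bromodomain protein of the testis that some ESCC cells express, and TP63 encodes p63, a transcription factor of squamous epithelium. KYSE180 and TE6 cells received a control siRNA (siCont), siBRDT or, in other libraries, siTP63, and RNA was taken 48 h later. KYSE180 siBRDT (n = 3) had its own siCont libraries (n = 3), KYSE180 siTP63 (n = 2) had a separate siCont set (n = 2), and in TE6 siBRDT (n = 2) and siTP63 (n = 2) shared a single siCont set (n = 2). KYSE150 was compared as siTP63 (n = 2) against siCont (n = 2) and, in a separate experiment, as BRDT-OE (n = 3), cells electroporated with a BRDT plasmid, against cells with a control vector (n = 3). All 3 are established tumour lines, each a single genetic background, and KYSE150 was grown with 5% serum against 10% for the others. The labels do not say whether replicates were separate cultures, so p-values measure the spread between these libraries, which may be technical.

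Sterol synthesis runs from acetyl-CoA through mevalonate and the isoprenoid farnesyl diphosphate to squalene, and from squalene through lanosterol to cholesterol. Fatty acid synthesis draws on the same acetyl-CoA pool and is followed by elongation and desaturation of the chains. Both branches are driven by the SREBP transcription factors, encoded by SREBF1 and SREBF2, which stay in the endoplasmic reticulum with SCAP while INSIG1 holds the complex there, and which are carried to the Golgi and cut free by the proteases MBTPS1 and MBTPS2 when sterol levels fall. INSIG1 is itself an SREBP target, so its mRNA is widely used as a readout of the pathway.

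The sequences before the start of 5 members are shown because SREBF2 carries the only match to the sterol response element searched and because MSMO1, INSIG1, STARD4 and SCD were lower in all 3 BRDT comparisons described below. They were taken from RefSeq (GRCh38.p14) as up to 250 bases before the start, 5′ to 3′ on the gene's strand, ending where the annotated gene begins. Capitals mark a match to the sterol response element TCACNCCAC or to CCAAT, the box bound by NF-Y, on either strand, where ATTGG is CCAAT read from the other strand.
SREBF2, chr22:41832855-41833104, plus strand: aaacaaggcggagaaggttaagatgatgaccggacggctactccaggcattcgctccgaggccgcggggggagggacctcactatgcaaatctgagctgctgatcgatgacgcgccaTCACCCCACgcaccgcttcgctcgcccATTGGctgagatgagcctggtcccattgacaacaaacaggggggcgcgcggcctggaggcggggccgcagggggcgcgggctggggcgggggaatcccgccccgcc
MSMO1, chr4:165327419-165327666, plus strand: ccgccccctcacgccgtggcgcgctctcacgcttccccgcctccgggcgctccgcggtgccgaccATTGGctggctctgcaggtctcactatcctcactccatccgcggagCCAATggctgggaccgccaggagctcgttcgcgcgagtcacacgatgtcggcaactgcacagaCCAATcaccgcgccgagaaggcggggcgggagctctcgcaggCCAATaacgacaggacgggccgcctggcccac
INSIG1, chr7:155297628-155297775, plus strand: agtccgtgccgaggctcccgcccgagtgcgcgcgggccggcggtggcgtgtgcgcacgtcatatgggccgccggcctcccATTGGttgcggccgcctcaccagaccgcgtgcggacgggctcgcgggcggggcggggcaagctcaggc
STARD4, chr5:111512591-111512785, minus strand: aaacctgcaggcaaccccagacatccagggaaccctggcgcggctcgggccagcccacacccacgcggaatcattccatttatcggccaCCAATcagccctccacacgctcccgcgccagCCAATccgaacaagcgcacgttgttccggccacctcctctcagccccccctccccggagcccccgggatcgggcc
SCD, chr10:100346983-100347232, plus strand: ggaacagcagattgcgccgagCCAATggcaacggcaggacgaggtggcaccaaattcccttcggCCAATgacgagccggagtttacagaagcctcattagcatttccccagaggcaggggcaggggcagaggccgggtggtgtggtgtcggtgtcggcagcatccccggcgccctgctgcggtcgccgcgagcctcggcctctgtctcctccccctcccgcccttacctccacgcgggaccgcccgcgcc

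RefSeq windows of 250 bases before to 50 bases after the start were given for 26 of the 30 members, with none for ACAT2, FDFT1, SQLE and FASN. The letters TCACNCCAC stood in 1 of 36 member windows, that of SREBF2, at positions -133 to -125 before the start, and in 1.13% of all 35116 windows. CCAAT was in 23 of the 36 member windows (63.9%), against 34.6% of all windows, and 19 members had it. MSMO1 held 4 copies of CCAAT, starting at -185, -139, -76 and -34, STARD4 and SCD held 2 copies each, and INSIG1 and SREBF2 held 1 copy each. The GC box GGGCGG, the site named for Sp1, was in 33 of 36 member windows (91.7%) and in 45% of all windows. Matches of different motifs can share letters, and no binding was measured here.

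The libraries held between 7582089 and 19372441 reads in genes, so 3 reads amounted to between 0.155 and 0.396 RPM, reads scaled to the library total. All 8 squamous markers examined were detected in every library and summed to at least 822 RPM. Fibroblast markers summed to at most 120 RPM (KYSE180 siBRDT), immune markers to 112 (KYSE150 vector controls) and adipocyte markers to 2.31 (KYSE180 siBRDT). In KYSE180 siCont and siBRDT of the BRDT experiment, 5 of 6 fibroblast markers had over 3 reads in every library of the group. In KYSE180, BRDT had 1017, 1043 and 1136 normalised counts with siCont and 132, 147 and 198 with siBRDT, a 6.75-fold fall (log2 change -2.75, limma adjusted p = 2.6e-10). In TE6, the values were 241 and 242 against 55 and 46.6 (log2 change -2.23, limma adjusted p = 1.7e-06). KYSE150 control libraries of the overexpression experiment had 8.13, 16 and 6.58 and the BRDT-OE libraries 15871, 15927 and 17542 (log2 change 10.60, limma adjusted p = 3.4e-09). TP63 fell with siTP63 in KYSE180 (log2 change -1.70, limma adjusted p = 4.9e-10) and TE6 (log2 change -4.45, limma adjusted p = 1.3e-10), and in KYSE150 it went from 695 and 729 to 170.3 and 114 (log2 change -2.34, limma adjusted p = 0.082), a change that did not pass the adjusted threshold in this fit or by edgeR (adjusted p = 0.085). It passed by DESeq2 (adjusted p = 1.0e-08), with no filter on low values (limma adjusted p = 0.027), with a length and GC correction (0.017) and with any 1 of its 4 libraries left out (limma adjusted p from 5.9e-05 to 0.0026). TP63 also fell with siBRDT in KYSE180 (log2 change -0.58, limma adjusted p = 8.8e-06) and TE6 (log2 change -1.15, limma adjusted p = 2.0e-05). The KYSE150 siCont and siTP63 replicates differed most by chi-square, 35.4 and 64.1 per degree of freedom against a lowest value of 1.84. By correlation the TE6 siBRDT pair was furthest apart (Pearson r across genes of 0.9752 against at least 0.9894 in every other pair), with reads in 20995 genes in replicate 1 and 16817 in replicate 2.

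In the control libraries the members were mostly abundant genes. Per kilobase of the longest annotated transcript, SCD, which makes monounsaturated fatty acids, had the highest mean level of the members in KYSE180 controls of the BRDT experiment, 3662 normalised counts per kb, in TE6 (2583) and in the KYSE150 vector controls (4238). FDPS, which makes farnesyl diphosphate, led in KYSE180 siCont of the TP63 experiment at 2761 and in KYSE150 siCont at 4419.7 normalised counts per kb. HSD17B7, a sterol ketoreductase, was lowest in KYSE180 of the BRDT experiment at 41.3 normalised counts per kb. FADS2, the first desaturase for polyunsaturated fatty acids, was lowest in TE6 at 40. The KYSE180 siCont sets of the BRDT and TP63 experiments differed from each other in these genes: SCD made up a mean of 1730 RPM in the first and 273 in the second, FASN 806 and 143, ACLY 731 and 139.6, INSIG1 212 and 45.8, while FDPS made up 347 and 329. The experiments were normalised separately and no test was run across them.

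ACAT2, the cytosolic thiolase that opens the pathway, and DHCR7, the reductase of its last step, had almost no reads in KYSE150. Over all 10 KYSE150 libraries ACAT2 ranged from 1.18 to 14.6 normalised counts and DHCR7 from 0.86 to 4.23, whereas in control libraries of KYSE180 and TE6 ACAT2 ranged from 1160.2 to 2041 and DHCR7 from 1346 to 2687. Of 1784 genes with a control mean of at least 1000 in KYSE180 and TE6, 19 were under 10 in both KYSE150 control sets, and these included both members. Whether the reads are missing from the cells or from the counting was not tested. The ACAT2 locus, at chr6:159762045-159779112 in hg38, overlaps SOD2 and TCP1 on the other strand, and DHCR7, at chr11:71428193-71452868, overlaps none of the other genes counted here. Annotated genes without counts here were not looked at. MVK, IDI1, FDPS, CYP51A1, SREBF1, STARD4, ACSS2 and ACACA also overlap genes on the other strand, and their values are uncertain to that extent because the strand setting of the counting is not given in the sources used here.

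The first comparison asked how these genes stood after BRDT depletion in lines that express it. In KYSE180, 13 of 30 members fell and 1 rose with siBRDT, where a called change means a limma p adjusted over all genes tested of under 0.05 and a log2 change of at least 0.5 in size. Of all 13589 genes tested, 15.8% were called down and 14.5% up. The median log2 change was -0.46 over the members and -0.01 over all genes, and 27 of 30 members were below 0. In TE6, 12 members fell and 3 rose, against 18.1% of all 13333 genes down and 15.6% up, with a median of -0.43 over the members and -0.04 over all genes. Without TE6 siBRDT replicate 1, in which more genes had reads than in any other library, 11 members fell and 3 rose, and the members' median was -0.29. The falls common to both lines were those of SQLE, MSMO1, SC5D, INSIG1, STARD4, FASN and SCD, 7 of the 13 members that fell in KYSE180 and 7 of the 12 in TE6. The share of all genes called down in both lines was not counted, so this overlap cannot be called particular to the members. The study itself reported that the genes regulated in these lines overlapped significantly. In bulk RNA, fewer expressing cells and less RNA per cell cannot be told apart.

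**Figure D1:**
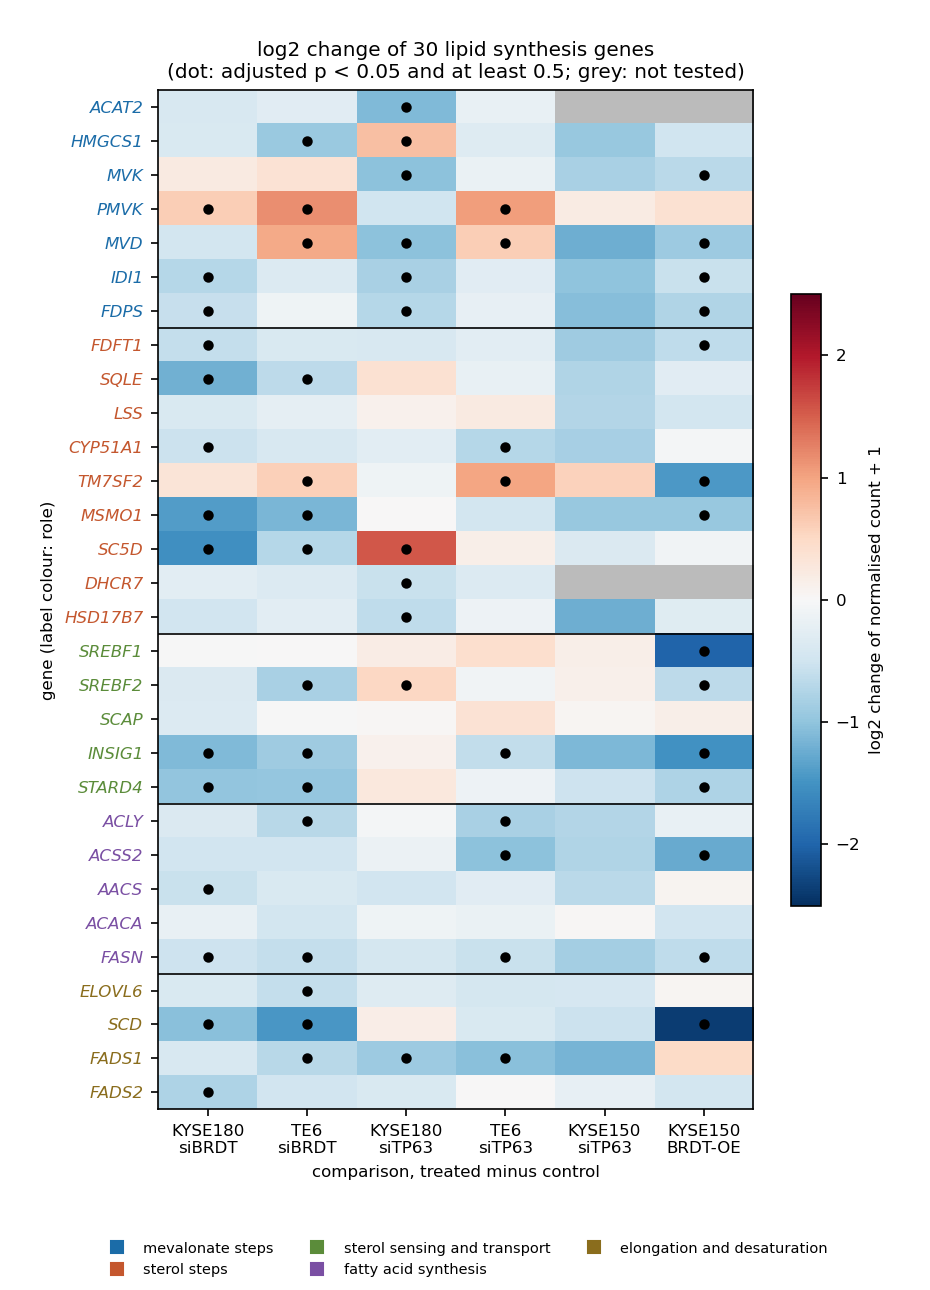
Log2 change of each of the 30 members (rows, grouped by role) in the 6 comparisons (columns), coloured from lower (blue) to higher (red) in the treated libraries, with called changes marked and untested members left blank. With siBRDT in KYSE180 and with BRDT-OE the marked cells are nearly all blue (13 of 14 and 14 of 14), and with siTP63 in KYSE180 and TE6 both colours are marked.

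The steepest falls in KYSE180 were those of SC5D, MSMO1 and SQLE, 3 genes of the sterol steps. SC5D, the lathosterol desaturase, had 968, 979 and 1002 normalised counts in the siCont libraries and 356, 325 and 340.4 in the siBRDT libraries. The siBRDT libraries lay far below all controls, with no overlap, a 2.88-fold fall (log2 change -1.53, SE 0.071, limma adjusted p = 4.4e-10). MSMO1, the sterol C4-methyl oxidase, had 2018, 1966 and 2049 against 788, 783 and 729.5 (log2 change -1.39, SE 0.063, limma adjusted p = 3.6e-10). Squalene epoxidase SQLE, which adds the first oxygen to the sterol skeleton, had 1845, 1947 and 2071 against 915, 814 and 832 (log2 change -1.19, SE 0.07, limma adjusted p = 3.9e-09). Neither gene's groups overlapped, and the falls were 2.62-fold and 2.29-fold. FDFT1, the squalene synthase, and CYP51A1, the lanosterol demethylase, fell less, with log2 changes of -0.60 and -0.54. LSS, the lanosterol synthase, HSD17B7 and DHCR7 had log2 changes of -0.38, -0.47 and -0.26, which passed the p threshold but not the size limit.

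The same 3 genes fell in TE6. MSMO1 had 678 and 917 normalised counts with siCont and 404 and 315 with siBRDT (log2 change -1.14, SE 0.16, limma adjusted p = 1.2e-04). SQLE had 1879 and 2089 against 1184 and 1338 (log2 change -0.65, SE 0.11, limma adjusted p = 3.3e-04). SC5D had 471 and 621 against 393 and 275 (log2 change -0.72, SE 0.18, limma adjusted p = 0.0064). In each, both siBRDT libraries were below both controls, but for SC5D the upper siBRDT library was the nearest to the controls. That call was lost without siCont replicate 2 (log2 change -0.52, limma adjusted p = 0.13), without siBRDT replicate 2 (-0.46) and with a length and GC correction (-0.30). TM7SF2, a sterol C14-reductase, went the other way, with 1475 and 1335 against 2138 and 2125 (log2 change 0.60, SE 0.096, limma adjusted p = 3.2e-04), a rise that was 0.10 after the length and GC correction and no longer called. It shares its locus with VPS51 on the same strand, and how reads in that overlap were counted is not known.

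Among the sensing and transport genes, INSIG1 fell in both lines. In KYSE180 it had 2361, 2286 and 2406 normalised counts with siCont and 1148, 1043 and 1089 with siBRDT (log2 change -1.10, SE 0.063, limma adjusted p = 2.7e-09). In TE6 it had 951 and 951 against 546 and 480.2 (log2 change -0.89, SE 0.11, limma adjusted p = 6.8e-05). In each line the siBRDT libraries lay close together, well under their controls. STARD4, a carrier that moves cholesterol between membranes, had 502, 445 and 506 against 228, 252 and 252 in KYSE180 (log2 change -0.98, SE 0.088, limma adjusted p = 2.6e-07). In TE6 it had 197 and 223 against 152 and 75.3 (log2 change -0.96, SE 0.27, limma adjusted p = 0.011). The TE6 siBRDT libraries were unlike each other in STARD4, and that call was lost without siBRDT replicate 2 (log2 change -0.46) or without either siCont library (-1.05 and -0.87, limma adjusted p = 0.059 and 0.12).

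The SREBP genes themselves parted. SREBF2, which encodes the factor that mainly drives sterol synthesis and whose promoter stretch holds the TCACCCCAC match above, had 2149 and 1972 normalised counts in TE6 siCont and 1051 and 1295 with siBRDT, a 1.76-fold fall (log2 change -0.82, SE 0.11, limma adjusted p = 1.2e-04). In KYSE180 it had 3293, 3628 and 3559 against 2664, 2827 and 2712 (log2 change -0.35, SE 0.061, limma adjusted p = 1.7e-04), short of the size limit though every siBRDT library was below every control. SREBF1, which encodes the factor that mainly drives fatty acid synthesis, had 2942, 2799 and 3045 against 2990, 3015 and 2689 in KYSE180 (log2 change -0.02, SE 0.065, limma adjusted p = 0.84) and 2898 and 2511 against 2654 and 2759.5 in TE6 (log2 change 0.00, SE 0.1, limma adjusted p = 0.98). Its groups overlapped in both lines. SCAP, their escort, had log2 changes of -0.35 in KYSE180 and -0.02 in TE6, neither called.

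**Figure D2:**
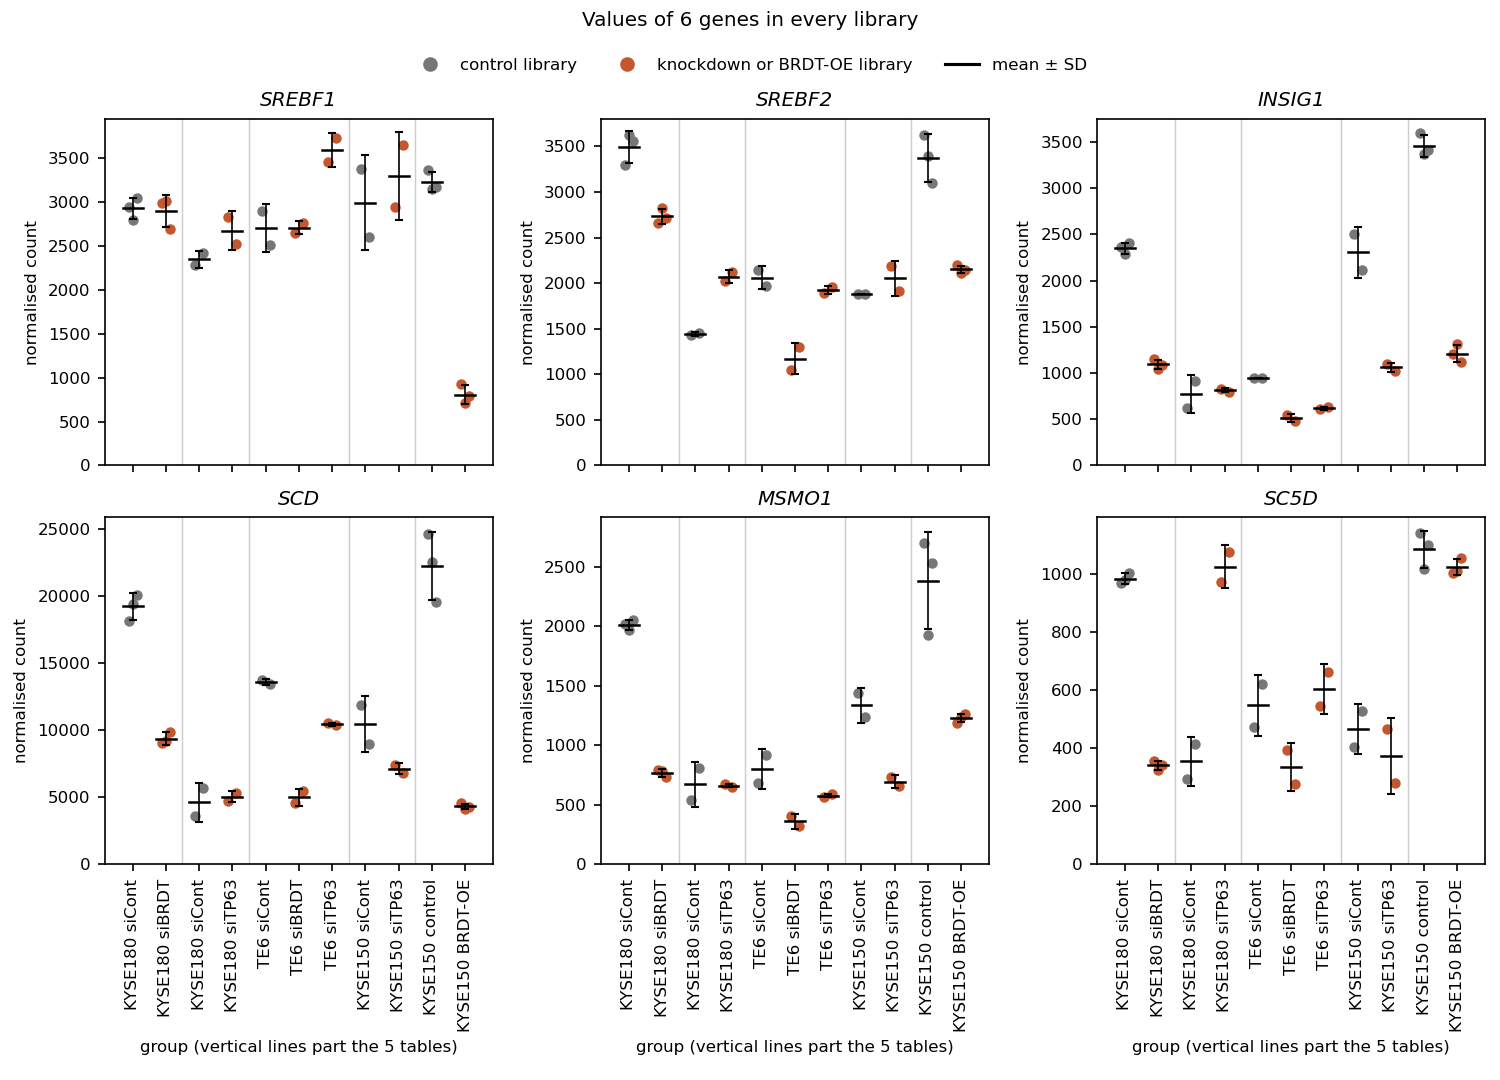
Normalised counts (vertical axis) of SREBF1, SREBF2, INSIG1, SCD, MSMO1 and SC5D in every library, each point being 1 library, with groups side by side within each experiment. INSIG1, SCD and MSMO1 lie lower in every siBRDT and BRDT-OE library than in the matching controls, SREBF1 lies lower in BRDT-OE but overlaps its controls with siBRDT, and SC5D rises in KYSE180 siTP63.

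The mevalonate genes split. IDI1, the isopentenyl diphosphate isomerase, and FDPS fell in KYSE180. IDI1 had 1425, 1359 and 1335 normalised counts against 925, 785 and 821 (log2 change -0.70, SE 0.073, limma adjusted p = 1.2e-06), and FDPS had 4002, 3942 and 3602 against 2659, 2629 and 2486 (log2 change -0.57, SE 0.063, limma adjusted p = 2.3e-06). HMGCS1, the HMG-CoA synthase, fell in TE6, from 3903 and 4440.3 to 2238 and 2122 (log2 change -0.93, SE 0.1, limma adjusted p = 2.1e-05), and in KYSE180 had a log2 change of -0.37. The other mevalonate genes gave mixed values. PMVK, the phosphomevalonate kinase, had 184, 183 and 131 in KYSE180 siCont and 275, 245 and 235 with siBRDT (log2 change 0.61, SE 0.13, limma adjusted p = 8.5e-04), and 482 and 456 against 1132 and 986 in TE6 (log2 change 1.17, SE 0.11, limma adjusted p = 1.2e-05). It was the only member called up in KYSE180, and there it was not called without siCont replicate 3 (log2 change 0.45) or with the length and GC correction (0.47). MVD, the mevalonate diphosphate decarboxylase, rose in TE6, from 1303 and 1202 to 2600.2 and 2224 (log2 change 0.94, SE 0.11, limma adjusted p = 3.2e-05), and in KYSE180 had 2209.9, 2123 and 1854 against 1662, 1529 and 1328 (log2 change -0.45, SE 0.086, limma adjusted p = 3.4e-04). That KYSE180 value was called down at -0.59 with the length and GC correction, and at -0.53 without siCont replicate 3 or siBRDT replicate 1. MVK, the mevalonate kinase, had log2 changes of 0.23 and 0.36, under the size limit.

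In the fatty acid branch SCD fell most. Of 5 synthesis genes 2 fell in each line, and of 4 elongation and desaturation genes 2 fell in KYSE180 and 3 in TE6. The shares of all genes that fell were 15.8% in KYSE180 and 18.1% in TE6. SCD had 18140, 19407 and 20075 normalised counts in KYSE180 siCont and 8996, 9191 and 9865 with siBRDT (log2 change -1.04, SE 0.065, limma adjusted p = 7.0e-09), and 13702 and 13397 against 4530.4 and 5423 in TE6 (log2 change -1.45, SE 0.099, limma adjusted p = 1.1e-06). These are falls of 2.05-fold and 2.73-fold, with every siBRDT library at a level under that of every control of its line. FASN, the fatty acid synthase, had 8362, 9106 and 9388 against 5592, 6706 and 6444 in KYSE180 (log2 change -0.52, SE 0.074, limma adjusted p = 2.6e-05) and 5738 and 5129 against 3240 and 3969.6 in TE6 (log2 change -0.60, SE 0.12, limma adjusted p = 0.0012). It was near the size limit: in KYSE180 the log2 change was -0.44 without siBRDT replicate 1, -0.49 without siCont replicate 3 and -0.43 when libraries were scaled by total reads, and in TE6 it was -0.45 without siBRDT replicate 1. ACLY, the ATP citrate lyase that supplies cytosolic acetyl-CoA, fell in TE6 (log2 change -0.70, limma adjusted p = 0.0011; -0.45 without siBRDT replicate 1). ACACA, the acetyl-CoA carboxylase, had log2 changes of -0.18 in KYSE180 and -0.46 in TE6, neither called.

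Of the remaining chain-modifying genes, FADS2 fell in KYSE180, from 5496, 5948 and 5429 to 3349.8, 3342 and 3157 normalised counts (log2 change -0.78, SE 0.061, limma adjusted p = 7.3e-08). In TE6, where it was far lower, it had 207 and 199 against 121 and 177 and was not called. Scaled by total reads it was called there (log2 change -0.57, limma adjusted p = 0.022), and without siBRDT replicate 2 its value was -0.74. FADS1, the delta-5 desaturase, fell in TE6, from 820.2 and 930.3 to 495 and 590.1 (log2 change -0.69, SE 0.13, limma adjusted p = 8.1e-04), and had a log2 change of -0.41 in KYSE180. These genes overlap each other on opposite strands on chromosome 11, and FADS2 overlaps FEN1 on its own strand. How reads in such overlaps were counted is not given in the sources used here. ELOVL6, the elongase of saturated chains, was called in TE6 (log2 change -0.59, limma adjusted p = 0.0065), but not without siBRDT replicate 1 (log2 change -0.37), without siCont replicate 2 (-0.48) or with the length and GC correction (-0.21). AACS, which activates acetoacetate for lipid synthesis, was called in KYSE180 (log2 change -0.56, limma adjusted p = 2.0e-05).

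**Figure D3:**
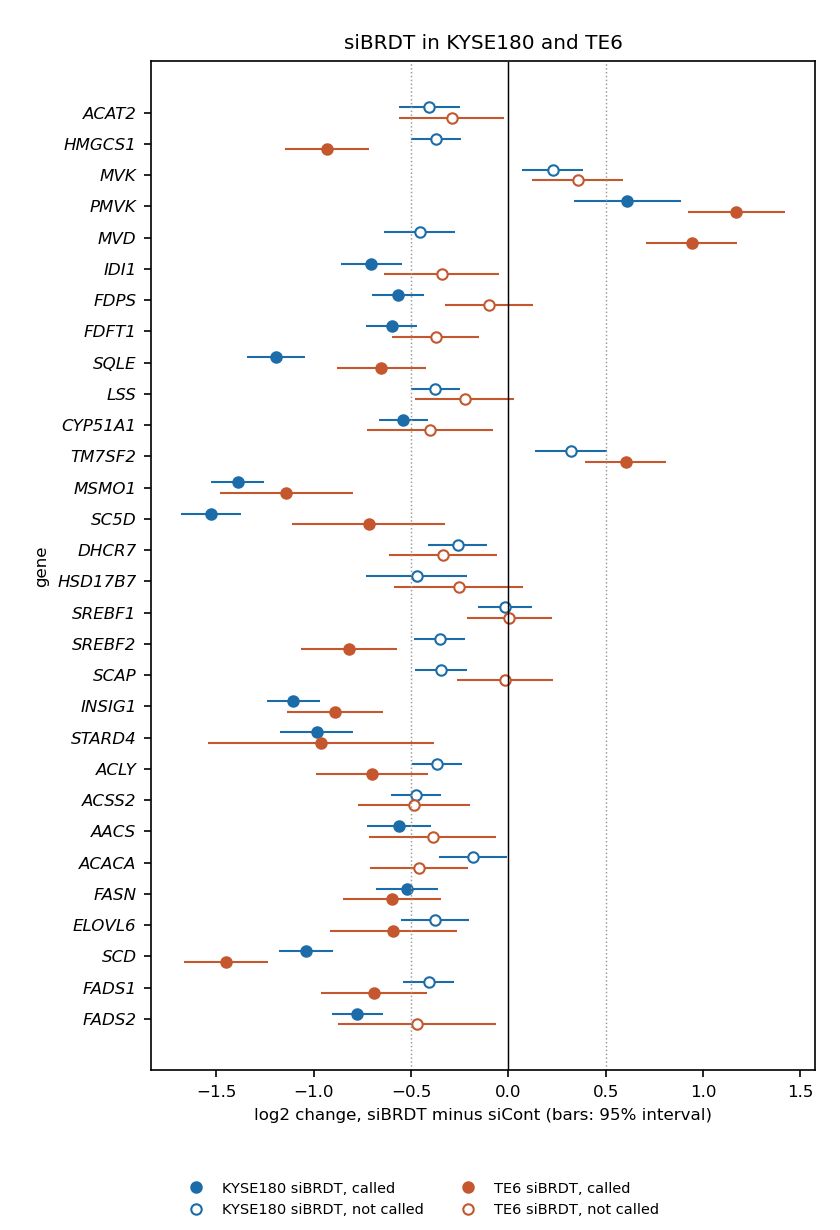
Log2 change with siBRDT (horizontal axis) of each member in KYSE180 and TE6, with points for the estimate and bars for the 95% interval of the limma fit. Points of both lines lie left of 0 for most members, SC5D, MSMO1, SQLE, INSIG1, SCD and STARD4 lie furthest left in KYSE180, and PMVK lies right of 0 in both.

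The test of the difference between the lines, the TE6 change minus the KYSE180 change, called 1 member below 0 and 4 above, against 17.9% of genes below 0 and 15.1% above. The largest was MVD at 1.40 (SE 0.15, limma adjusted p = 1.7e-06), which was called up in TE6 and lay below 0 in KYSE180. SC5D differed by 0.81 (SE 0.19, limma adjusted p = 0.0028) and SQLE by 0.54 (SE 0.13, limma adjusted p = 0.0023), both having fallen further in KYSE180. The SQLE difference was not called when scaled by total reads (0.35) or without KYSE180 siCont replicate 3, TE6 siCont replicate 1 or TE6 siBRDT replicate 2 (0.45 to 0.497). For INSIG1, MSMO1 and STARD4, which also fell in both lines, the differences did not pass the test: INSIG1 0.21 (95% interval -0.04 to 0.46, limma adjusted p = 0.16), MSMO1 0.25 (95% interval -0.10 to 0.59, limma adjusted p = 0.24) and STARD4 0.02 (95% interval -0.57 to 0.62, limma adjusted p = 0.96). The squamous markers, of which TP63 is 1, were lower with siBRDT too, the summed level of all 8 lying between 8913 and 9479 RPM in KYSE180 siCont and between 5549 and 5746 with siBRDT, and between 6056 and 6070 in TE6 siCont and 2792 and 3064 with siBRDT. All of 9 tested interferon response genes rose in TE6 siBRDT (15.6% of all genes rose), ISG15 by 4.43 on the log2 scale, and 2 of 10 in KYSE180 siBRDT (14.5% of all genes). Their part in the changes of the lipid genes was not tested.

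The overexpression experiment asked the converse, how these genes stood when BRDT was added to a line with almost none. With BRDT-OE in KYSE150, 14 of 28 tested members fell and 0 rose in the limma test, where 16% of all 12765 genes were called down and 10.5% up. By edgeR and DESeq2 the count of members up was also 0, and at an unadjusted p under 0.05 it was 1. The median log2 change was -0.52 over the 28 members and 0.02 over all genes, and 23 members were below 0. Of the 14, 8 had also fallen in KYSE180 with siBRDT, and MSMO1, INSIG1, STARD4, FASN and SCD fell in all 3 BRDT comparisons, so depletion and overexpression, in different lines, did not give opposite directions for them. How many of all genes were called down in the same comparisons was not counted, so these shared falls have no background share.

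SCD fell most. The vector controls had 24598, 22526 and 19556 normalised counts and the BRDT-OE libraries 4519.6, 4138 and 4217, a 5.16-fold fall (log2 change -2.37, SE 0.09, limma adjusted p = 2.5e-07). SREBF1, whose groups overlapped with siBRDT in both lines, had 3364, 3151 and 3172 against 924, 708 and 790.3 here, a 4.02-fold fall (log2 change -2.01, SE 0.095, limma adjusted p = 8.7e-07). INSIG1 had 3596, 3366 and 3412 against 1203, 1309 and 1119 (log2 change -1.52, SE 0.076, limma adjusted p = 1.1e-06). In these 3 genes the BRDT-OE libraries were tightly grouped and far under the controls. SREBF2 had 3626, 3394 and 3095 against 2194, 2113 and 2146 (log2 change -0.65, SE 0.074, limma adjusted p = 7.1e-05) and STARD4 1214, 1018 and 903 against 636, 595 and 582 (log2 change -0.78, SE 0.11, limma adjusted p = 1.9e-04). With SREBF1, SREBF2, INSIG1 and STARD4, 4 of 5 sensing and transport genes fell, where 16% of all genes did. SCAP, the other, had 1516, 1454 and 1418 against 1580.2, 1641 and 1623 (log2 change 0.14, SE 0.066, limma adjusted p = 0.094).

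Among the sterol steps, TM7SF2 and MSMO1 fell. TM7SF2 had 875, 555 and 809 normalised counts in the controls and 248, 274 and 292 with BRDT-OE (log2 change -1.43, SE 0.15, limma adjusted p = 4.7e-05). MSMO1 had 2698, 1922 and 2527 against 1188, 1234 and 1257 (log2 change -0.94, SE 0.11, limma adjusted p = 9.0e-05). The groups stood clear of each other in both. SC5D and CYP51A1, which had fallen in KYSE180 with siBRDT, had log2 changes of -0.08 and -0.04 here. FDFT1 fell by 0.64 on the log2 scale, and SQLE, with 1741, 1641 and 1605 against 1423, 1362 and 1326, stayed under the size limit (log2 change -0.28, SE 0.069, limma adjusted p = 0.0068).

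In the mevalonate steps, MVD fell from 2541, 2020.4 and 2816 to 1371, 1174 and 1346 normalised counts (log2 change -0.91, SE 0.12, limma adjusted p = 1.3e-04). FDPS fell from 5654, 5274 and 6483 to 3479, 3436 and 3359 (log2 change -0.76, SE 0.082, limma adjusted p = 5.0e-05). MVK (log2 change -0.67, limma adjusted p = 2.6e-04) and IDI1 (log2 change -0.55, limma adjusted p = 0.0011) fell less, and the call of IDI1 was lost without control replicate 3 (log2 change -0.47) or without BRDT-OE replicate 3 (-0.4975). ACSS2, which makes acetyl-CoA from acetate, had 2239, 1841 and 2025 against 867, 856 and 825 (log2 change -1.26, SE 0.082, limma adjusted p = 3.8e-06). FASN had 14742, 14040 and 11601 against 8914, 8285 and 8843 (log2 change -0.63, SE 0.094, limma adjusted p = 3.5e-04). Every BRDT-OE library was below every control for these 6 genes. FADS1 had 556, 641 and 561 against 747, 834 and 855 (log2 change 0.47, SE 0.089, limma adjusted p = 0.0015), higher in every BRDT-OE library but short of the size limit, except without control replicate 2 (0.54) or without BRDT-OE replicate 1 (0.53), where it was called up.

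The balance of all calls in this experiment depended on the scaling. Of all called genes 60.3% were down with the deposited size factors, 74% after upper-quartile rescaling and 77.2% when libraries were scaled by total reads, the all-gene median shifting by -0.10 and -0.12 in turn. The members' median lay 0.54 below that of all genes under either rescaling, and 18 members were called down under either. Interferon genes fell, 8 of 8 tested (16% of all genes fell), IFIT1 by 3.47 on the log2 scale. The summed squamous markers were 1361 to 1628 RPM in the controls and 1549 to 1679 with BRDT-OE. The part of the interferon genes in the lipid gene changes was not tested.

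Depletion of TP63 was examined in 3 lines. In KYSE180 siTP63, 8 of 30 members fell and 3 rose, where 25.7% of 13924 genes were called down and 23.6% up. The median log2 change was -0.21 over the members and 0.00064 over all genes. In TE6 siTP63, 6 members fell and 3 rose, against 20.6% of genes down and 18.3% up, with a median of -0.20 over the members and -0.01 over all genes. The shares of members called down were near those of all genes. FADS1 was the 1 member that fell in both lines, and its KYSE180 call was lost when libraries were scaled by total reads (log2 change -0.38).

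The KYSE180 siTP63 directions rested on the scaling. When libraries were scaled by total reads in place of the deposited size factors, the median of all genes moved by 0.52 on the log2 scale, 2 members were called down and 11 up, and the share of called genes that were down went from 52.1% to 17.8%. With upper-quartile rescaling the median of all genes moved by 0.19, 6 members were down and 4 up, and the share was 36.8%. The members' median was 0.21 below that of all genes under each scaling, as the plot of medians shows. In KYSE180 siBRDT total-reads scaling took the share of calls that were down from 52.1% to 40.3% (members 9 down and 1 up, with FDPS, CYP51A1, AACS and FASN no longer called), and in TE6 siBRDT from 53.8% to 66.5% (16 down, 3 up). The members' median stayed 0.46 and 0.39 below that of all genes in these.

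**Figure D4:**
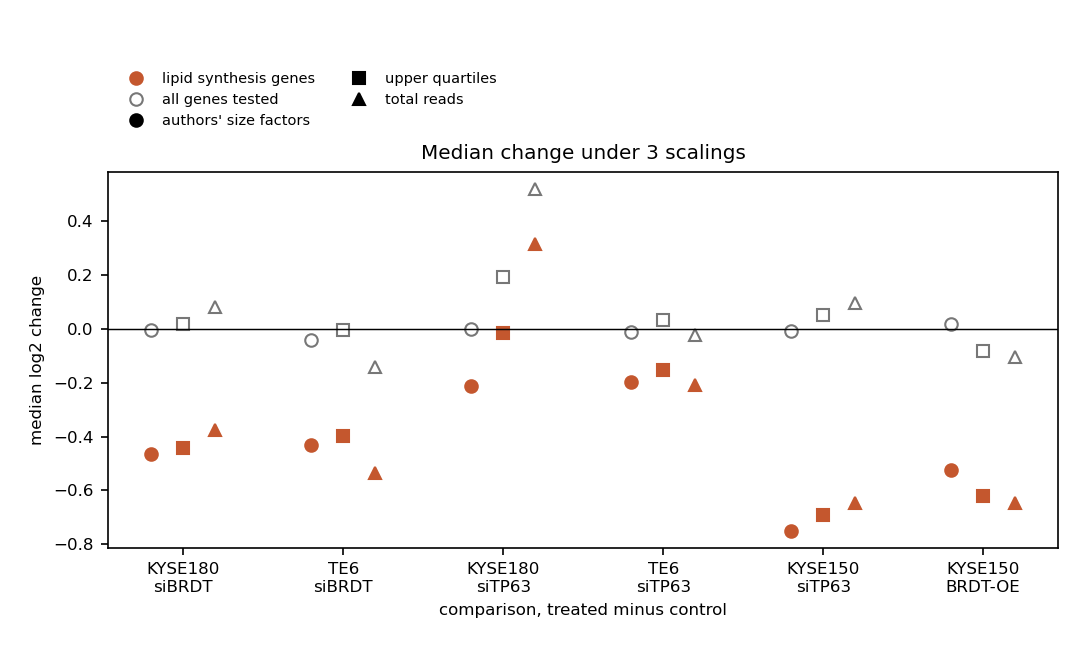
Median log2 change (vertical axis) of the members and of all genes tested in each comparison, under the deposited size factors, upper-quartile rescaling and total-reads scaling. Both medians shift together, most in KYSE180 siTP63, where the members' median goes from -0.21 to 0.31 and that of all genes from about 0 to 0.52, so the gap between them is about the same.

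The mevalonate genes carried most of the members' falls in KYSE180 siTP63, 5 of the 7 having fallen, where 25.7% of all genes fell. ACAT2 had 1726 and 2041 normalised counts with siCont and 873 and 881 with siTP63 (log2 change -1.10, SE 0.14, limma adjusted p = 3.8e-07). MVK had 1444 and 1533 against 808 and 658 (log2 change -1.03, SE 0.14, limma adjusted p = 1.4e-06). Both siTP63 libraries were far under both controls for each gene, and these calls stood under every scaling. MVD (log2 change -1.02, limma adjusted p = 3.2e-06), IDI1 (log2 change -0.82, limma adjusted p = 9.1e-05) and FDPS (log2 change -0.72, limma adjusted p = 1.9e-04) fell too, with values of -0.49, -0.29 and -0.19 when scaled by total reads. HMGCS1 rose, from 1589 and 2306 to 3069 and 3405 (log2 change 0.76, SE 0.16, limma adjusted p = 2.4e-04), but its controls differed widely and without siCont replicate 1 the log2 change was 0.49, not called.

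SC5D, the member that had fallen most with siBRDT in this line, rose with siTP63, with 294 and 413 normalised counts in siCont and 972 and 1076 in siTP63, a 2.93-fold rise (log2 change 1.55, SE 0.16, limma adjusted p = 1.1e-08). Both siTP63 libraries were far above both controls. SREBF2 had 1427 and 1457 against 2024 and 2119.6 (log2 change 0.52, SE 0.14, limma adjusted p = 0.0022), and its value was 0.49 without siTP63 replicate 2 and 0.39 with the length and GC correction, neither called. INSIG1 had 626 and 919 against 829 and 799 (log2 change 0.10, SE 0.16, limma adjusted p = 0.60) and MSMO1 538 and 805 against 669 and 649.9 (log2 change 0.00, SE 0.16, limma adjusted p = 0.99), with overlapping groups. Scaled by total reads, INSIG1 was 0.63 and called up. FADS1 had 1614 and 2121 against 972 and 1004 (log2 change -0.90, SE 0.15, limma adjusted p = 1.2e-05), and a log2 change of -0.38, not called, when scaled by total reads. DHCR7 (log2 change -0.57, limma adjusted p = 0.0013) and HSD17B7 (log2 change -0.64, limma adjusted p = 0.01) were called down, but their log2 changes were -0.04 and -0.12 when scaled by total reads, and without siCont replicate 2 they were -0.46 and -0.45, not called.

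The largest falls in TE6 siTP63 were those of FADS1, ACSS2 and ACLY. ACSS2 had 1617 and 1541 normalised counts with siCont and 787 and 756 with siTP63 (log2 change -1.03, SE 0.13, limma adjusted p = 4.9e-05). ACLY had 4311 and 4152 against 2348 and 2508 (log2 change -0.80, SE 0.13, limma adjusted p = 3.3e-04), and FADS1 820.2 and 930.3 against 433 and 416 (log2 change -1.04, SE 0.13, limma adjusted p = 3.0e-05). All 3 fell with clear gaps between the groups. CYP51A1 (log2 change -0.71, limma adjusted p = 0.0017), INSIG1 (log2 change -0.62, limma adjusted p = 6.7e-04) and FASN (log2 change -0.55, limma adjusted p = 0.0017) fell as well, FASN not without siCont replicate 1 (-0.47) or siTP63 replicate 1 (-0.45). PMVK rose from 482 and 456 to 1007 and 939.6 (log2 change 1.05, SE 0.11, limma adjusted p = 1.2e-05) and TM7SF2 from 1475 and 1335 to 2742 and 2792 (log2 change 0.98, SE 0.096, limma adjusted p = 5.5e-06). MVD rose (log2 change 0.61, limma adjusted p = 5.1e-04), by 0.24 with the length and GC correction and then no longer called. SCD, with 13702 and 13397 against 10482 and 10341, was under the size limit (log2 change -0.38, SE 0.099, limma adjusted p = 0.0065), and SREBF1, with 2898 and 2511 against 3456 and 3730.3, was likewise (log2 change 0.41, SE 0.1, limma adjusted p = 0.0044). Without siCont replicate 1 the SREBF1 value was 0.52.

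In KYSE150 siTP63 no gene was called by the limma test, 0% down and 0% up of 12335 genes, TP63 included, whose call under other settings is given above. Without adjustment, 2194 genes had a p under 0.05, among them 16 of the 28 tested members, all below 0. By edgeR 0 members were called and by DESeq2 6 were, all down, and the share of all genes called by DESeq2 was not counted. The median log2 change was -0.75 over the members and -0.01 over all genes, and 22 of 28 members were below 0. INSIG1, with the lowest adjusted p of the members, had 2505 and 2113 normalised counts with siCont and 1097 and 1024 with siTP63 (log2 change -1.12, SE 0.2, limma adjusted p = 0.11). FADS1 had 414 and 435 against 216 and 166 (log2 change -1.16, SE 0.23, limma adjusted p = 0.12). HSD17B7 had 371 and 273 against 129 and 142 (log2 change -1.23, SE 0.25, limma adjusted p = 0.12). In all 3 both siTP63 libraries were under both controls. MVD had 6866 and 2976 against 1328 and 2809.5 (log2 change -1.23, SE 0.51, limma adjusted p = 0.29), with the replicates of each group far apart. SREBF1 and SREBF2 had log2 changes of 0.14 and 0.12.

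The TE6 change with siTP63 minus that in KYSE180 was called below 0 for 8 members and above 0 for 6, where 25.5% of genes were below and 27.6% above. MVD differed by 1.62 (SE 0.19, limma adjusted p = 1.7e-06) and PMVK by 1.55 (SE 0.2, limma adjusted p = 3.8e-06), both with a value below 0 in KYSE180 and above 0 in TE6. SC5D differed by -1.40 (SE 0.26, limma adjusted p = 2.2e-04) and HMGCS1 by -1.08 (SE 0.2, limma adjusted p = 2.0e-04), in the other direction. With the length and GC correction PMVK (0.48) and HMGCS1 (-0.45) were not called. The KYSE150 change minus the KYSE180 change called 0 members in either direction by limma, where 0.849% of genes were below 0 and 0.774% above. At an unadjusted p under 0.05 there were 8 of 28 members, all below 0, where 3140 of 11891 genes passed, 1186 of them below 0. DESeq2 called 6 members, and the share of all genes it called was not counted. Squamous markers were lower with siTP63, summed to 5277 to 5323 RPM in KYSE180 against 8050 to 8336 in siCont, to 1315 to 1399 in TE6 against 6056 to 6070, and to 822 to 865 in KYSE150 against 1923 to 2251. Of the interferon genes tested, 10 of 10 rose in KYSE180 siTP63 (23.6% of all genes) and 6 of 9 in TE6 siTP63 (18.3%). In KYSE150 none of 8 was called, and no gene was. Their part in the changes was not tested.

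The knockdowns were then set against each other within a line. In KYSE180 the siTP63 change minus the siBRDT change was below 0 for 4 members and above 0 for 8, against 29.6% and 27.6% of genes, with separate control sets. SC5D differed by 3.08 (SE 0.17, limma adjusted p = 2.5e-10), SQLE by 1.57 (SE 0.14, limma adjusted p = 3.9e-08) and MSMO1 by 1.39 (SE 0.17, limma adjusted p = 1.9e-06), each called down with siBRDT and not with siTP63. INSIG1 (1.21), STARD4 (1.25), SCD (1.198), HMGCS1 (1.13) and SREBF2 (0.87) differed in the same direction. MVK differed by -1.25 (SE 0.14, limma adjusted p = 7.9e-07), PMVK by -1.11 (SE 0.21, limma adjusted p = 1.7e-04), ACAT2 by -0.69 (SE 0.14, limma adjusted p = 2.7e-04) and MVD by -0.56 (SE 0.17, limma adjusted p = 0.0076), being lower with siTP63. With the length and GC correction PMVK (-0.28), ACAT2 (-0.34) and MVD (-0.098) were no longer called. The MVD call was also lost with rescaling (-0.38), by edgeR (-0.49), by total reads (-0.13) and without siCont replicate 3 or siBRDT replicate 1 of the BRDT experiment or siCont replicate 1 or siTP63 replicate 2 of the TP63 experiment (-0.49 to -0.36), and that of ACAT2 by total reads (-0.25). With total-reads scaling 2 members were below 0 and 19 above.

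In TE6, where both knockdowns share their siCont libraries, the difference was below 0 for 2 members and above 0 for 6, against 14.3% and 14.1% of genes. SCD differed by 1.07 (SE 0.099, limma adjusted p = 6.3e-06): it had 4530.4 and 5423 normalised counts with siBRDT and 10482 and 10341 with siTP63. SREBF2 had 1051 and 1295 against 1893 and 1959, a difference of 0.72 (SE 0.11, limma adjusted p = 3.7e-04). HMGCS1 had 2238 and 2122 against 3185 and 3451, a difference of 0.61 (SE 0.1, limma adjusted p = 4.9e-04). In these genes both siTP63 libraries were above both siBRDT libraries. SC5D, STARD4 and MSMO1 differed by 0.87, 0.83 and 0.69, calls that were lost without siTP63 replicate 2 (0.72, 0.60 and 0.66, with limma adjusted p of 0.061, 0.24 and 0.06). MVK and ACSS2 were lower with siTP63 than with siBRDT, by -0.53 and -0.55, calls lost without siBRDT replicate 2 (-0.47 and -0.33). SCD thus fell with siBRDT in both lines, while with siTP63 it had log2 changes of 0.16 in KYSE180 and -0.38 in TE6, neither called. The KYSE180 control sets of the BRDT and TP63 experiments differed in their SCD level, as given above. FADS1 fell with siTP63 in both lines. Its differences were -0.496 (95% interval -0.80 to -0.20, limma adjusted p = 0.0056) in KYSE180 and -0.35 (95% interval -0.62 to -0.08, limma adjusted p = 0.043) in TE6, both under the size limit and not called.

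Genes around the pathway were followed through lists of related genes. Of 7 genes that process or turn over SREBP and its partners, 5 fell with siBRDT in each line, where 15.8% of all genes in KYSE180 and 18.1% in TE6 were called down. MBTPS2, the site-2 protease that frees SREBP, fell in both (log2 change -1.42 in KYSE180 and -1.06 in TE6), as did MBTPS1, the site-1 protease (-0.76 and -0.64), and RNF139, a ubiquitin ligase (-0.71 and -1.49). In TE6 the MBTPS2 call was lost without siCont replicate 2 (-0.98, limma adjusted p = 0.053). With siTP63, 4 of 7 fell in TE6 (20.6% of all genes), MBTPS2 with a log2 change of -1.66, and in KYSE180 none fell and 2 rose (23.6% of all genes rose), RNF139 (0.65) and ERLIN2 (0.85). With BRDT-OE none of the 7 was called, with a median log2 change of 0.13.

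Of 10 genes of LXR, sterol efflux and storage, 4 rose and 2 fell with siBRDT in KYSE180 (14.5% and 15.8% of all genes). ABCA1, the cholesterol efflux pump, rose (log2 change 1.29, limma adjusted p = 6.4e-06). In TE6 siBRDT 1 rose, NR1H3, which encodes LXR alpha (log2 change 1.33, limma adjusted p = 2.8e-05), and 3 fell (15.6% and 18.1% of all genes). ABCG1, another efflux pump, fell with siTP63 in KYSE180 (log2 change -1.77, limma adjusted p = 6.9e-09) and TE6 (log2 change -2.03, limma adjusted p = 1.4e-06). It was the 1 gene of the 10 called down in KYSE180 siTP63, where 3 rose, ABCA1 (0.90) among them (25.7% and 23.6% of all genes). TE6 siTP63 had 3 down, ABCA1 (-1.10) among them, and 2 up (20.6% and 18.3% of all genes). With BRDT-OE MYLIP, a ligase that degrades lipoprotein receptors, fell (log2 change -2.78, limma adjusted p = 1.4e-05) among 3 of 8 tested (16% of all genes fell).

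Of 11 other SREBP-responsive genes, GPAM, which starts triglyceride synthesis, fell with siBRDT in KYSE180 (-0.72) and TE6 (-0.96) and rose with BRDT-OE (0.56), a call lost when libraries were rescaled (0.46). In all, 2 fell and 1 rose with siBRDT in KYSE180 (15.8% and 14.5% of all genes), and 2 fell and 2 rose in TE6 (18.1% and 15.6% of all genes). RDH11, a retinol dehydrogenase, rose in both (0.50 and 0.59), close to the size limit and not called in KYSE180 without siCont replicate 2 or 3 or siBRDT replicate 1 or 3 (0.47 to 0.49) or by total reads in TE6 (0.49), and PCYT2, of phosphatidylethanolamine synthesis, rose in TE6 (0.62). With siTP63 5 of 11 fell and 0 rose by limma in each line, where 25.7% of all genes in KYSE180 and 20.6% in TE6 fell. TMEM97, a sterol-regulated membrane protein, fell in both (log2 change -0.98 in KYSE180 and -0.69 in TE6), as did RDH11 (-0.83 and -0.66), and in KYSE180 neither was called when scaled by total reads (-0.45 and -0.30). With BRDT-OE 3 of 10 fell (16% of all genes fell), among them ALDOC (-1.29) and MID1IP1 (-1.12).

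Among 13 other genes of chain elongation, desaturation and activation, ELOVL4, an elongase of very long chains, fell with siBRDT in KYSE180 (log2 change -1.44, limma adjusted p = 1.4e-06) and TE6 (log2 change -0.74, limma adjusted p = 0.0056), the TE6 call being lost without either siCont library (adjusted p = 0.052 and 0.059). HACD2, a dehydratase of the elongation cycle, fell in TE6 with siBRDT (-2.37) and siTP63 (-1.50) and rose in KYSE180 with siTP63 (0.86), a call lost without siTP63 replicate 2 (0.35). ACSL1 (1.16) and ACSL4 (1.10) rose more in KYSE180 siTP63, and FADS3 fell most (-1.04). Of 12 tested there, 4 rose and 2 fell (23.6% and 25.7% of all genes), and 6 fell in TE6 siTP63 (20.6%). Counts with siBRDT were 4 down and 1 up in KYSE180 (15.8% and 14.5%) and 3 down in TE6 (18.1%). SCD5, the second stearoyl-CoA desaturase, fell with siTP63 in TE6 (-1.79) and KYSE180 (-0.69, but -0.16 by total reads and not called) and with siBRDT in KYSE180 (-0.63). With BRDT-OE none of the 11 tested was called, with a median log2 change of 0.20, while SCD fell 5.16-fold. Of 15 genes of fatty acid oxidation, 1 was called with siBRDT in KYSE180, downward, and in TE6 CPT1A, which admits fatty acids to mitochondria, fell (log2 change -1.02, limma adjusted p = 5.8e-05) and 2 rose, against the 15.8% and 18.1% of all genes that fell and 14.5% and 15.6% that rose. With siTP63 5 of the 15 fell in KYSE180 (25.7% of all genes), most of all ETFB, an electron transfer flavoprotein subunit (log2 change -1.94), and ECHS1, the short-chain enoyl-CoA hydratase (-1.07). In TE6 siTP63 3 rose (18.3% of all genes), ACAA2, a mitochondrial thiolase (0.97), ECHS1 (0.80, and 0.45 and not called with the length and GC correction) and HADHB. Of 10 genes of the isoprenoid branch, which leaves at farnesyl diphosphate, FNTB, a farnesyltransferase subunit, fell with siBRDT in KYSE180 (-0.72, not called without siCont replicate 1 or siBRDT replicate 2, at -0.55 and -0.54) and TE6 (-1.84) and rose with siTP63 in KYSE180 (1.95). The TE6 value was -1.68 and not called without siCont replicate 2 (limma adjusted p = 0.092).

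Over all 6 comparisons 26 of 30 members were called down in at least 1, and 6 were called up in at least 1, namely HMGCS1, PMVK, MVD, TM7SF2, SC5D and SREBF2. Of the 28 members tested in all 6 comparisons 24 were called down in at least 1 (85.7%) and 6 up (21.4%), where of 11337 genes tested in all 6 these shares were 64.5% and 52.5%. Of those 6, 5 were called in both directions in different comparisons. LSS, SCAP and ACACA were called in none. IDI1, FDPS, MSMO1, STARD4, SCD and FADS1 were called down in 3 comparisons, FASN in 4 and INSIG1 in 4.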

How the data were processed

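RNA was isolated with QIAzol and sequenced from TruSeq libraries. Per the labels and the study's methods, alignment by the authors was to hg38 with STAR 2.6.0, counting with HTSeq 0.11.2 and normalisation with DESeq2 1.24.0 (versions from the submitters' processing notes). The annotation and strand setting are not given in the sources used here. The deposited values are a normalised signal, the gene's reads over the library's size factor, and the 5 tables were scaled independently. Whole reads were recovered for 100% of values, within 0.01 of a read.

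Genes with a table mean of at least 10 were tested on log2(value + 1) with limma 3.58.1 in R 4.3.3 (moderated test with a mean-variance trend, Benjamini-Hochberg adjustment over all genes tested), so fold changes of low genes are understated. The TE6 groups shared 1 fit, and differences between log2 changes were tested as contrasts. Alternatives changed the pseudocount to 0.1, dropped the filter, rescaled libraries to the upper quartile, added a replicate block, corrected for transcript length and GC (known for 87.45% of symbols) or left out each library in turn, and edgeR 4.0.16 and DESeq2 1.42.0 were run on recovered reads. Scaling by total reads and a crossed pairing were chosen after seeing the data. The members and gene lists were chosen with earlier results of these data known. By rule, every member was named, with values per library for SREBF1, SREBF2, INSIG1 and the strongest called rise and fall of each role, and other lists by up to 2 called genes with the largest change. Further members, and a listed gene's value in a second comparison, were added after their values were seen. Gene positions and overlaps came from GENCODE on hg38, with overlaps sought only among genes counted here, and promoter windows from RefSeq. The scripts were tested on simulated data. Replicate numbers were not used as pairs in the main fits, since the correlations of same-number deviations were not all above 0.1. They ran from -0.70 in KYSE150 siTP63 to 0.18 in KYSE180 siBRDT. The labels do not say whether libraries were paired, and these correlations do not settle it.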

Additional observations from a re-analysis of the deposited data

Results flagged for a closer look

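The change with siBRDT in TE6 minus that in KYSE180 differed from 0, by an interaction contrast in limma, for 5 members. They were HMGCS1 (-0.56, adjusted p = 0.000799), PMVK (0.56, adjusted p = 0.0217), MVD (1.40, adjusted p = 1.67e-06), SQLE (0.54, adjusted p = 0.00232) and SC5D (0.81, adjusted p = 0.00283). HMGCS1 and PMVK had moved further in TE6, and SQLE and SC5D further in KYSE180. Of these 5 calls 2, those of MVD and SC5D, stood under every setting. PMVK was 0.095 with the length and GC correction, HMGCS1 -0.31 with the same, and SQLE 0.35 when scaled by total reads.

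The same contrast for siTP63 differed from 0 for 14 members. Above 0 were ACAT2 (0.91, limma adjusted p = 0.000487), MVK (0.86, adjusted p = 0.000513), PMVK (1.55, adjusted p = 3.78e-06), MVD (1.62, adjusted p = 1.66e-06), FDPS (0.51, adjusted p = 0.0155) and TM7SF2 (1.09, adjusted p = 6.67e-05). Below 0 were HMGCS1 (-1.08, adjusted p = 0.000201), SQLE (-0.55, adjusted p = 0.0125), SC5D (-1.40, adjusted p = 0.000225), SREBF2 (-0.62, adjusted p = 0.00462), INSIG1 (-0.72, adjusted p = 0.00792), ACLY (-0.76, adjusted p = 0.00255), ACSS2 (-0.88, adjusted p = 0.00135) and SCD (-0.54, adjusted p = 0.0485). All of the members above 0 except TM7SF2 were genes of the mevalonate steps. Under total-reads scaling of the libraries 14 members were below 0 and 3 above, so the balance of signs in this contrast followed the scaling, and 5 of the 14 calls stood under every setting.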

How the results depend on the processing

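A smaller pseudocount, no filter on low values, the replicate block, edgeR and the fit of each TE6 pair alone left every member count within 1.5 times its value. With the replicate block KYSE180 siBRDT, for example, gave 13 members down. Called members that were called under every setting numbered 13 of 14 with BRDT-OE, 9 of 14 and 9 of 15 with siBRDT in KYSE180 and TE6, and 3 of 11 and 7 of 9 with siTP63. In KYSE180 siTP63 scaling by total reads gave 2 members down and 11 up with a median of 0.31 (-0.015 when rescaled), in KYSE180 siBRDT a median of -0.38, and in BRDT-OE one of -0.65 (rescaled, -0.62). It gave 4 below and 2 above 0 for TE6 minus KYSE180 siBRDT, 14 and 3 for siTP63, 2 below and 19 above (rescaled, 13 above) for siTP63 minus siBRDT in KYSE180, 0 below in TE6, and 3 below (rescaled, 2) for KYSE150 minus KYSE180 siTP63. The TE6 siTP63 median was -0.15 when rescaled. The length and GC correction gave 0 members up in KYSE180 siBRDT, 1 up in KYSE180 siTP63, 7 down in KYSE150 siTP63, 1 up in BRDT-OE, 0 below 0 for TE6 minus KYSE180 siBRDT, 6 below for KYSE150 minus KYSE180 siTP63 and 2 below for siTP63 minus siBRDT in KYSE180. DESeq2 called 6 down in KYSE150 siTP63 and 6 below 0 in its contrast with KYSE180. A crossed pairing in KYSE150 siTP63, chosen after seeing the data because same-numbered deviations correlated at -0.70, called 19 down and 1 up. The shares of all genes called by DESeq2 and under this pairing were not counted, so these member counts have no background share. In KYSE150 siTP63, TP63 itself was called with the replicate block (limma adjusted p = 3.2e-05). The cause of these shifts was not tested.

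Leaving out 1 library at a time gave, as lowest and highest values, 0 to 1 members up in KYSE180 siBRDT (0 without siCont replicate 3), a median of -0.51 to -0.29 in TE6 siBRDT (-0.29 without siBRDT replicate 1), 2 to 5 up in KYSE180 siTP63 (5 without siCont replicate 2), a median of -0.26 to -0.19 in TE6 siTP63, 0 to 1 down in KYSE150 siTP63 and 0 to 1 up in BRDT-OE. For TE6 minus KYSE180 it gave 1 to 4 below 0 with siBRDT (4 without TE6 siBRDT replicate 2) and 5 to 10 with siTP63 (5 without KYSE180 siCont replicate 1). For KYSE150 minus KYSE180 siTP63 it gave 0 to 7 below and 0 to 1 above (7 and 1 without KYSE150 siTP63 replicate 1). For siTP63 minus siBRDT in TE6 it gave 1 to 2 below and 3 to 8 above (3 without siTP63 replicate 2). Where an arm was left with 1 library, that library was taken to vary like the others.

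Values near 0 changed sign for SREBF1: in KYSE180 siBRDT to 0.0059 when rescaled, 0.071 by total reads, 0.012 without siCont replicate 3 (lowest -0.049, without siCont replicate 2) and 0.037 without siBRDT replicate 3; in TE6 siBRDT to -0.086 with the length and GC correction, -0.097 by total reads, -0.099 without siCont replicate 2 (highest 0.11, without siCont replicate 1) and -0.023 without siBRDT replicate 2; and in KYSE150 siTP63 to -0.042 without siCont replicate 2 (highest 0.33, without siCont replicate 1) and -0.0096 without siTP63 replicate 2. INSIG1 in KYSE180 siTP63 was -0.17 without siCont replicate 1 and 0.38 without siCont replicate 2, FASN there was 0.079 by total reads, and SC5D in TE6 siTP63 was -0.050 without siCont replicate 1 and 0.35 without siCont replicate 2. None of these values was called. At other settings SC5D in TE6 siTP63 was called up at 0.58 with the length and GC correction. INSIG1 in KYSE180 siTP63 was called up at 0.63 by total reads, and FASN there was called down at -0.56 with the length and GC correction. The called difference of FDPS, TE6 minus KYSE180 with siTP63, was -0.12 with the length and GC correction and -0.021 by total reads.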

Other observations

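The KYSE150 control sets also differed from each other in these genes. SCD made up a mean of 1490 RPM in the vector controls of the overexpression experiment and 648 in siCont, FASN 903 and 459, STARD4 70.1 and 24.4, and INSIG1 232 and 144. FDPS made up 388 and 554 and MVD 165 and 300, in the other direction. The sets were transfected and normalised separately, and no test was run between them.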
